A study of Mus musculus with 8 samples.

Results

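The genes for the Fc receptors of immunoglobulin G (IgG) were followed in mouse macrophages: the activating receptors Fcgr1, Fcgr3 and Fcgr4, the signalling chain Fcer1g, and the inhibitory receptor Fcgr2b. They were taken by symbol and are 5 of the 24421 gene symbols counted in every library. All 5 passed the filter on low counts, as did 13821 genes in all. RNA of primary macrophages was sequenced in 8 libraries, all labelled as coming from animals on a normal diet. The 3 groups were wild type (WT, 3 libraries), a genotype labelled LysM-DKO (3 libraries) and a genotype labelled ABCG1KO (2 libraries). An Epsin double knockout is named in the series design, and the LysM-DKO group was taken to be it. Epsins, encoded by Epn1 and Epn2, are adaptors of clathrin-mediated endocytosis, and LysM is the lysozyme M gene Lyz2, whose promoter is used to drive Cre recombinase in myeloid cells. ABCG1 is a transporter that exports cholesterol, and the label ABCG1KO names no promoter or cell type. The age, sex, strain and tissue of origin were not given in the sources used here. Nothing in the labels says whether the libraries of a group came from separate animals, so the p-values measure the spread between these samples, which may be technical.

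Macrophages read immune complexes through a balance of opposed receptors. The activating receptors bind the Fc part of IgG outside the cell and pair with the FcR gamma chain, the product of Fcer1g, which carries an activation motif (ITAM) that Src-family kinases phosphorylate and that then recruits the kinase Syk. The inhibitory receptor carries an ITIM motif of its own, which recruits the lipid phosphatase SHIP1, encoded by Inpp5d, and damps the signal when both kinds of receptor bind the same complex. Interferon gamma is known to raise Fcgr1 and Fcgr4 in mouse macrophages, and interleukin 4 to raise the inhibitory receptor on human monocytes.

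In the reference annotation (GRCm38, GENCODE M21), 4 of the 5 genes lay near each other on chromosome 1: Fcgr2b at chr1:170958617-170976547 on the minus strand, Fcgr4 at chr1:171018920-171029761 on the plus strand, Fcgr3 at chr1:171051174-171064935 on the minus strand and Fcer1g at chr1:171229572-171234365 on the minus strand. Fcgr1 lay apart from them at chr3:96282909-96293969 on the minus strand. The promoter sequences shown are those of Fcgr4 and Fcgr1, the activating receptors whose windows held motif matches, and of the inhibitory receptor Fcgr2b. Each is the 250 bases before the RefSeq start (GRCm38.p6), 5′ to 3′ on the strand of the gene, with motif matches in capitals. They span chr1:171018676-171018925 for Fcgr4, chr3:96293970-96294219 for Fcgr1 and chr1:170976072-170976321 for Fcgr2b.
Fcgr4: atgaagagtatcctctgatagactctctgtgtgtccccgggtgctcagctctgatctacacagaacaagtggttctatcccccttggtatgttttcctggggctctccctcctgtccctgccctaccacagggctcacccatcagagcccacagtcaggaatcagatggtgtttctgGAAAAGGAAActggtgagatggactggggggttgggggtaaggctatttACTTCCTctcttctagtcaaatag
Fcgr1: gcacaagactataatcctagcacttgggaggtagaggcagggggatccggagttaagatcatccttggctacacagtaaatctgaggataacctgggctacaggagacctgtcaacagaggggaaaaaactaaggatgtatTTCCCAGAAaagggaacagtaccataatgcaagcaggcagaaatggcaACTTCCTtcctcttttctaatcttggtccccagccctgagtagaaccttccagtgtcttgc
Fcgr2b: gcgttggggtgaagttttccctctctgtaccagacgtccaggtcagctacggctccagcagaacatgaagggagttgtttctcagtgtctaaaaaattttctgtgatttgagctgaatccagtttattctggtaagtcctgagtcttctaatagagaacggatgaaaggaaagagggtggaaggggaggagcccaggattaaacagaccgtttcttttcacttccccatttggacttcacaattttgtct
On both strands, 5 motifs were searched: GAS (TTCNNNGAA), the ETS core AGGAAGT, ISRE (TTTC, any 2 bases, TTTC), CCAAT and TATAAA. The Fcgr4 window held an ISRE match 73 to 64 bases before the start and an ETS match 24 to 18 bases before it. The Fcgr1 window held a GAS match 109 to 101 bases before the start and an ETS match 61 to 55 bases before it. None of these matches overlapped another. No match of the 5 motifs was found in the windows of Fcgr2b, Fcgr3 or Fcer1g. The windows of Fcgr2b and Fcgr3 lie inside the GENCODE bounds of these genes given above. The sequence before the outermost annotated starts of Fcgr2b and Fcgr3 was therefore not searched. Of 32851 RefSeq promoter windows of this length, 2.98% held the ISRE, 7.02% the GAS, 7.69% the ETS core, 33.9% CCAAT and 12.4% TATAAA. A match is a description of the letters only.

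The receptor genes resemble each other in sequence, and for Fcgr3 and Fcgr2b this bears on how reads can be assigned. Their coding sequences were 85.5% identical over 758 aligned bases, against 62.1% to 65.6% for the other pairs of receptors. Both genes hold the stretch below, in which 119 of 120 bases are the same and the 1 that differs is in capitals. It lies at chr1:171057695-171057814 in exon 3 of Fcgr3 and at chr1:170967984-170968103 in exon 5 of Fcgr2b, both on the minus strand.
Fcgr3: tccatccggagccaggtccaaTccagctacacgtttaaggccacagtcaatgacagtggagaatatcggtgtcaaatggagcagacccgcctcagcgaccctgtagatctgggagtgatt
Fcgr2b: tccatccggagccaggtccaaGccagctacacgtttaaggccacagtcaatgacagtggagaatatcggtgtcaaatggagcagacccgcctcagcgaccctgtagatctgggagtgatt
Of all 50-base windows of the longest coding transcript, 12.8% in Fcgr3 also occurred in Fcgr2b, and 4.75% in Fcgr2b also occurred in Fcgr3. A further part of Fcgr2b occurred in genes outside the family, for 12.5% in all. At 100 bases the shares were 3.53% for Fcgr3 and 6.79% for Fcgr2b. No window of Fcgr1, Fcgr4 or Fcer1g was shared with another gene. Fcgr2b also shares 155 exon bases with Gm38204 on the other strand, and the strand setting of the counting was not given in the sources used here. The counts of Fcgr3 and Fcgr2b are therefore less certain than those of the other 3 genes.

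Depth ranged from 29567615 to 41888516 counts in genes per library. Levels below are in CPM, the count of a gene relative to the TMM-scaled size of its library, as mean ± SD over libraries. Abcg1 fell to 17.4% of WT in ABCG1KO (384.5 ± 34.6 CPM, n = 3, against 66.9 ± 9.16 CPM, n = 2; log2 fold change -2.52, SE 0.37, edgeR adjusted p = 0.00414). Epn1 stood at 208 ± 19.6 CPM in WT and 169 ± 14.1 CPM in the libraries labelled LysM-DKO (edgeR adjusted p = 0.430), and Epn2 at 7.34 ± 2.08 and 8.40 ± 4.20 CPM (edgeR adjusted p = 0.852). ABCG1KO, which carries no Epsin deletion by its label, had Epn1 at 168.7 ± 18.9 CPM and Epn2 at 18.5 ± 0.0510 CPM, and LysM-DKO against ABCG1KO gave Epn1 a log2 fold change of 0.00 (95% interval -0.34 to 0.34, edgeR adjusted p = 0.999). The deleted exons were not given in the sources used here, so a count over the whole gene does not check that label, and every direction below for LysM-DKO rests on it. Lyz2 stood at 14620 ± 1428 CPM in WT and 6849 ± 1088 CPM in LysM-DKO (log2 fold change -1.09, edgeR adjusted p = 0.173; DESeq2 adjusted p = 5.77e-07). In ABCG1KO it stood at 12824 ± 2245 CPM, and LysM-DKO was lower than ABCG1KO (log2 fold change -0.90, edgeR adjusted p = 0.0336, and not called without LysM-DKO 1, LysM-DKO 3 or ABCG1KO 1, at 0.0934, 0.0737 and 0.181). All 10 macrophage markers were detected in every library, with summed levels of 33483 to 36668 CPM in WT, 22860 to 24645 CPM in LysM-DKO and 28639 to 29868 CPM in ABCG1KO. Lyz2 and the protease gene Ctss (8207 ± 1237 CPM in WT, 5289 ± 272 CPM in LysM-DKO and 3948 ± 786 CPM in ABCG1KO) weigh heavily in these sums, and the median log2 fold change of the 10 markers was -0.09 in LysM-DKO and -0.20 in ABCG1KO against WT. The female transcript Xist reached 79.1 to 200.3 CPM in all 3 WT libraries, and the Y-linked Ddx3y was at 81.6 to 94.8 CPM in LysM-DKO 1, ABCG1KO 1 and ABCG1KO 2. Sex and genotype thus cannot be told apart between ABCG1KO and WT. By these transcripts LysM-DKO 1 matched ABCG1KO, and LysM-DKO 2 and 3 matched WT. Sex is therefore partly mixed with genotype in both comparisons of LysM-DKO as well. Xist was at 0.0485, 265.3 and 254.3 CPM in LysM-DKO 1 to 3, so the libraries of that group did not all come from 1 animal. Reads outside annotated genes were 10.2% and 13.8% in ABCG1KO against 4.26% to 6.07% in the other 6 libraries, and reads without a unique alignment 6.74% and 6.93% against 2.65% to 3.01%. The part of sex and of these shares in the results below was not tested.

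Among the activating receptors, Fcgr4 showed the widest gap between the groups, and none of the 3 passed edgeR's test in the fit of all 8 libraries. Fcgr4 encodes the receptor FcγRIV, which binds IgG2a and IgG2b. It was at 151.4, 251.4 and 66.5 CPM in WT 1 to 3, at 56.9, 112.4 and 22.9 CPM in LysM-DKO 1 to 3, and at 35.4 and 25.7 CPM in ABCG1KO 1 and 2. Both ABCG1KO libraries lay below every WT library, while LysM-DKO 2 lay above WT 3, so those groups overlapped. The mean was 156.4 ± 92.6 CPM in WT, 64.0 ± 45.2 CPM in LysM-DKO and 30.5 ± 6.85 CPM in ABCG1KO. The fitted level in ABCG1KO was 19.5% of WT, a log2 fold change of -2.36 (SE 0.76, 95% interval -4.11 to -0.60, edgeR adjusted p = 0.0738 after Benjamini-Hochberg adjustment). In LysM-DKO it was 40.9% of WT, a log2 fold change of -1.29 (SE 0.62, interval -2.74 to 0.16, edgeR adjusted p = 0.461). LysM-DKO against ABCG1KO gave a log2 fold change of 1.07 (SE 0.71, interval -0.59 to 2.73, edgeR adjusted p = 0.351). Single libraries moved the size of these values: LysM-DKO against WT ran from -1.98 without LysM-DKO 2 to -0.80 without WT 2, and ABCG1KO against WT from -2.72 without WT 3 to -1.85 without WT 2. LysM-DKO against ABCG1KO ran from 0.37 without LysM-DKO 2 to 1.47 without LysM-DKO 3.

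Fcgr1 encodes FcγRI, the high-affinity receptor that binds single IgG molecules. It was at 105.2, 176.9 and 70.1 CPM in WT 1 to 3, at 99.3, 112.7 and 87.9 CPM in LysM-DKO 1 to 3, and at 73.9 and 56.1 CPM in ABCG1KO 1 and 2. ABCG1KO 1 lay just above WT 3, and all 3 LysM-DKO libraries lay within the WT range. The log2 fold change in ABCG1KO against WT was -0.85 (SE 0.35, 95% interval -1.66 to -0.04, edgeR adjusted p = 0.140). In LysM-DKO against WT it was -0.23 (SE 0.31, interval -0.94 to 0.47, edgeR adjusted p = 0.786), and 0.16 without WT 2. Each LysM-DKO library lay above both ABCG1KO libraries, with a log2 fold change of 0.62 (SE 0.35, interval -0.18 to 1.42, edgeR adjusted p = 0.266).

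Fcgr3 encodes FcγRIII, a low-affinity receptor for immune complexes. It was at 685.3, 1036 and 702.7 CPM in WT 1 to 3, at 725.7, 817.1 and 463.3 CPM in LysM-DKO 1 to 3, and at 642.8 and 355.2 CPM in ABCG1KO 1 and 2. The ABCG1KO libraries lay below all WT libraries, ABCG1KO 1 by a narrow margin, and LysM-DKO overlapped both other groups. The log2 fold change was -0.70 in ABCG1KO against WT (SE 0.34, 95% interval -1.48 to 0.09, edgeR adjusted p = 0.206), and ran from -1.19 without ABCG1KO 1 to -0.34 without ABCG1KO 2. It was -0.27 in LysM-DKO against WT (SE 0.30, interval -0.96 to 0.41, edgeR adjusted p = 0.733) and 0.42 in LysM-DKO against ABCG1KO (SE 0.34, interval -0.35 to 1.20, edgeR adjusted p = 0.434).

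The shared chain Fcer1g was at 780.9, 542.2 and 496.1 CPM in WT 1 to 3, at 532.8, 526.2 and 414.5 CPM in LysM-DKO 1 to 3, and at 402.2 and 291.1 CPM in ABCG1KO 1 and 2. Both ABCG1KO libraries lay below all 6 other libraries. The log2 fold change in ABCG1KO against WT was -0.81 (SE 0.25, 95% interval -1.38 to -0.23, edgeR adjusted p = 0.0637), or 57.2% of WT. LysM-DKO overlapped WT, with a log2 fold change of -0.30 (SE 0.22, interval -0.81 to 0.20, edgeR adjusted p = 0.589), and was above ABCG1KO by 0.50 (SE 0.25, interval -0.07 to 1.07, edgeR adjusted p = 0.210). The count of Fcer1g set against the summed count of the 3 activating receptors was 0.597 ± 0.229 for WT, 0.610 ± 0.109 for LysM-DKO and 0.600 ± 0.0929 for ABCG1KO, so the group means differed by less than the spread between libraries. LysM-DKO 1, the library with Ddx3y among the 3 of its group, was the highest of them for Fcer1g and lay between the others for the 4 receptors.

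For the inhibitory receptor Fcgr2b, the means of both other groups lay above that of WT, by less than the spread between libraries. It was at 243.0, 394.3 and 142.4 CPM in WT 1 to 3, at 328.5, 553.6 and 141.1 CPM in LysM-DKO 1 to 3, and at 430.8 and 250.5 CPM in ABCG1KO 1 and 2. All groups overlapped, and the highest LysM-DKO library was 3.92 times the lowest. The log2 fold change was 0.39 in LysM-DKO against WT (SE 0.53, 95% interval -0.85 to 1.63, edgeR adjusted p = 0.791) and 0.39 in ABCG1KO against WT (SE 0.59, interval -0.98 to 1.76, edgeR adjusted p = 0.694). LysM-DKO against ABCG1KO gave a log2 fold change of 0.00 (SE 0.60, interval -1.38 to 1.38, edgeR adjusted p = 0.999). These intervals are wide enough to hold a rise of more than 2-fold or a fall, so a difference in Fcgr2b was not resolved with these libraries. The sign rested on single libraries: without LysM-DKO 2 the log2 fold change against WT was -0.16, and without ABCG1KO 1 it was -0.06.

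**Figure D1:**
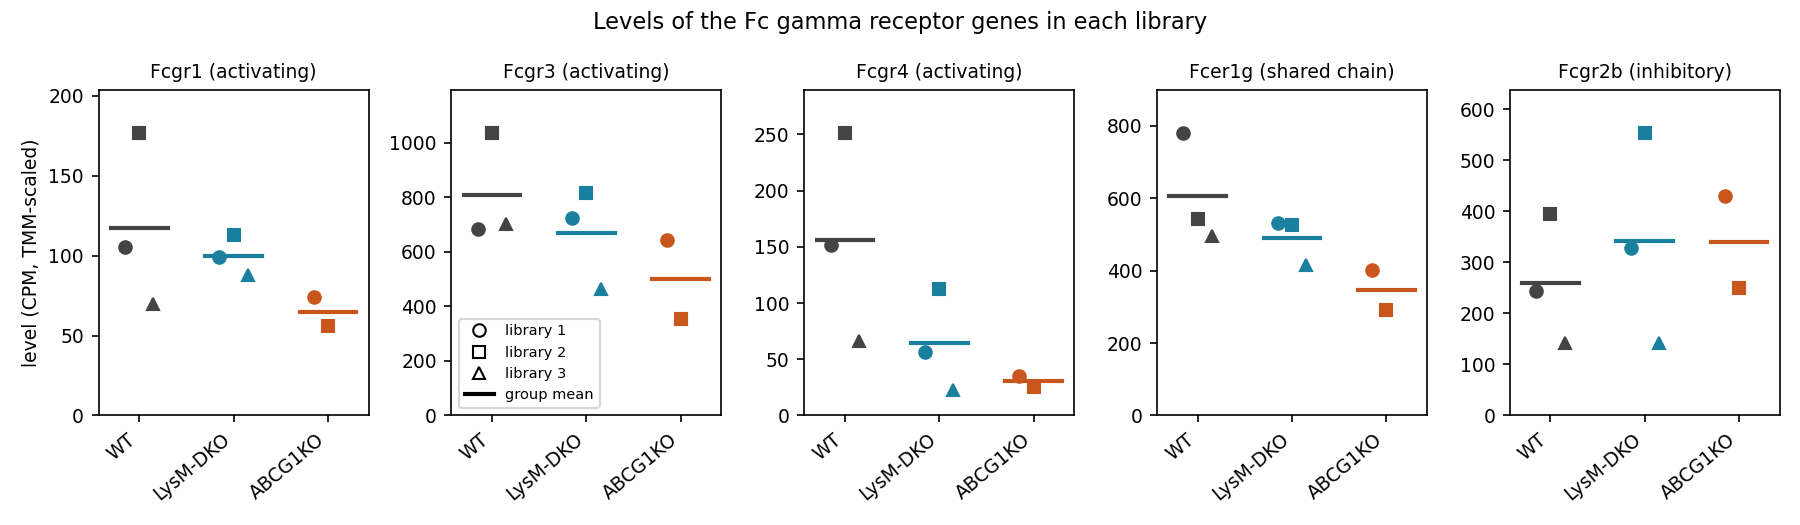
Each panel plots 1 gene, with its level in CPM (TMM-scaled, axis from 0) for every library as a point and the group mean as a line. Fcgr4 spans 66.5 to 251.4 CPM in WT and 25.7 to 35.4 CPM in ABCG1KO, while Fcgr2b overlaps in all 3 groups.

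No member was called in any comparison at an adjusted p under 0.05 by edgeR's fit of all 8 libraries. In LysM-DKO against WT, 0 of 5 were called where 0.0362% of all genes tested were, and 0 of 5 were under an unadjusted p of 0.05 where 11.7% were. In ABCG1KO against WT, 0 of 5 were called where 16% of all genes were. At an unadjusted p under 0.05, Fcgr1, Fcgr4 and Fcer1g were lower there, 3 of 5 members against 16.4% of genes that were lower by that rule. The CPM of both groups did not overlap for Fcgr3, Fcgr4 and Fcer1g, 3 of 5 lower against 24.2% of all genes. In LysM-DKO against ABCG1KO, 0 of 5 were called where 13.4% of genes were, and 0 of 5 were under an unadjusted p of 0.05 where 30.9% were. Fcgr1 and Fcer1g did not overlap there, 2 of 5 higher in LysM-DKO against 25.6% of all genes. In LysM-DKO against WT no member was free of overlap, where 21% of genes were. The median log2 fold change of the 5 members was -0.27 in LysM-DKO and -0.81 in ABCG1KO against WT, beside 0.02 and 0.01 over all genes tested. Both comparisons use the same WT libraries. Fewer cells of a type and less RNA per cell cannot be told apart in such bulk samples.

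The calls in ABCG1KO depended on the tool. DESeq2 called Fcgr4 (log2 fold change -2.35, adjusted p = 0.000944) and Fcer1g (-0.81, adjusted p = 0.0193) lower in ABCG1KO than in WT, and called no member in the other comparisons. Of all genes it called 3125 in ABCG1KO against WT, 1402 higher and 1723 lower, where edgeR's fit of all 8 libraries called 2216. edgeR fitted to the WT and ABCG1KO libraries alone called Fcgr4 (-2.36, adjusted p = 0.0488) and no other member. Without WT 3, edgeR called Fcgr1 (-1.12, adjusted p = 0.0475) and no other member. Over the edgeR fits without 1 library, 853 to 1848 of all genes were called in that comparison.

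**Figure D2:**
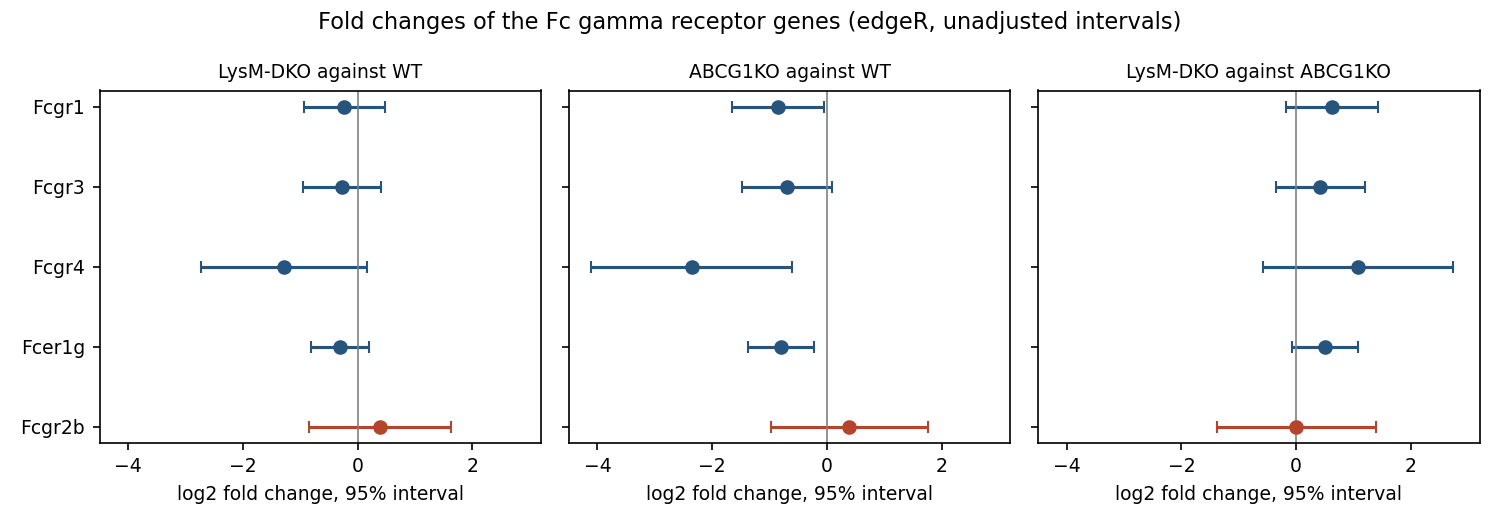
Points are log2 fold changes from edgeR and bars their 95% intervals, not adjusted for the number of genes, in 1 panel per comparison. In ABCG1KO against WT the intervals of Fcgr1, Fcgr4 and Fcer1g lie below 0 and that of Fcgr2b (red) runs from -0.98 to 1.76.

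Setting each activating gene against Fcgr2b inside the same library removes the scaling between libraries, and the groups separated most for Fcgr4. The count ratio of Fcgr4 to Fcgr2b was 0.623, 0.638 and 0.467 in WT 1 to 3, 0.173, 0.203 and 0.162 in LysM-DKO 1 to 3, and 0.0821 and 0.103 in ABCG1KO 1 and 2. All 3 groups were free of overlap, with WT highest and ABCG1KO lowest. The spread of this ratio within a group was smaller than that of the levels, most of all in LysM-DKO. Its coefficient of variation there was 11.7%, where Fcgr4 and Fcgr2b themselves had 70.5% and 60.6%. In WT it was 16.5% beside 59.2% and 48.8%, and in ABCG1KO (n = 2) 15.6% beside 22.4% and 37.4%. The geometric mean ratio in LysM-DKO was 31.3% of WT, a log2 difference of -1.67 (exact permutation test, two-sided, p = 0.1). In ABCG1KO it was 16.1% of WT, a log2 difference of -2.64 (exact permutation p = 0.1), and LysM-DKO stood above ABCG1KO by 0.96 (exact permutation p = 0.1). The value 0.1 is the smallest that these group sizes allow, and after Benjamini-Hochberg adjustment over the 12 ratios and comparisons tested it became 0.24. So this test could not pass 0.05 whatever the values. Without LysM-DKO 1 the log2 difference from WT was -1.65.

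The background of the same measure differed between the comparisons. In LysM-DKO against WT, Fcgr4 was 1 of 4 genes whose ratio to Fcgr2b was lower without overlap, where 1.85% of all genes tested were. In ABCG1KO against WT, 4 of 4 were lower without overlap, where 16.4% of all genes were. In LysM-DKO against ABCG1KO, Fcgr4 was 1 of 4 that were higher, where 7.53% of all genes were. A fit of all genes with libraries scaled to the Fcgr2b count, added after the data were seen, gave Fcgr4 a log2 fold change of -1.68 in LysM-DKO against WT (95% interval -3.18 to -0.18, edgeR adjusted p = 1) and of -2.64 in ABCG1KO against WT (interval -4.46 to -0.82, edgeR adjusted p = 0.123). That fit called 0 of 4 in each comparison, where 0.0724% of genes were called lower in LysM-DKO and 1.87% in ABCG1KO against WT, and 1.44% higher in LysM-DKO than in ABCG1KO. Its unadjusted p for Fcgr4 was under 0.05 in LysM-DKO and in ABCG1KO against WT, at 0.0281 and 0.00454 (edgeR). In the same fit 1.59% and 3.70% of genes had a smaller p, in either direction.

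The other ratios were lower in ABCG1KO and overlapped between LysM-DKO and WT. Fcgr1 to Fcgr2b was 0.433, 0.449 and 0.492 in WT 1 to 3, 0.302, 0.204 and 0.623 in LysM-DKO 1 to 3, and 0.172 and 0.224 in ABCG1KO 1 and 2. The WT values were tight, with a coefficient of variation of 6.67%, and LysM-DKO ran from below to above them. Fcgr3 to Fcgr2b was 2.82, 2.63 and 4.93 in WT, 2.21, 1.48 and 3.28 in LysM-DKO, and 1.49 and 1.42 in ABCG1KO, in the same library order. Fcer1g to Fcgr2b was 3.21, 1.38 and 3.48 in WT, 1.62, 0.950 and 2.94 in LysM-DKO, and 0.934 and 1.16 in ABCG1KO. WT 2 was the lowest WT library in the last ratio and lay not far above ABCG1KO 2. The log2 differences of ABCG1KO from WT were -1.22 for Fcgr1 and -1.19 for Fcgr3 (exact permutation p = 0.1 each, adjusted 0.24) and -1.26 for Fcer1g (exact permutation p = 0.2, adjusted 0.4). Those of LysM-DKO from WT were -0.44, -0.59 and -0.59 (exact permutation p = 0.4, 0.3 and 0.4, adjusted 0.4 each). LysM-DKO against ABCG1KO gave 0.78, 0.60 and 0.67 (exact permutation p = 0.3, 0.3 and 0.4, adjusted 0.4 each).

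**Figure D3:**
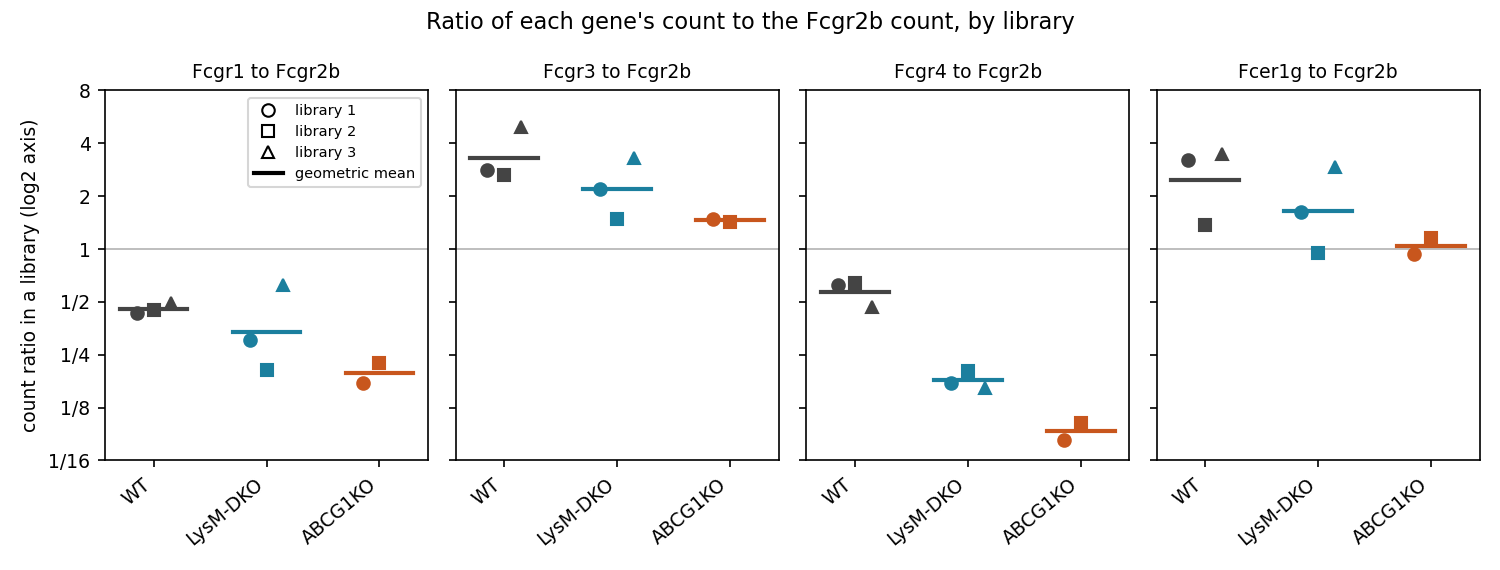
Each panel plots the count of 1 activating gene or of Fcer1g divided by the Fcgr2b count, on a log2 axis, with a point per library and the geometric mean of a group as a line. For Fcgr4 the 3 groups are apart, at 0.467 to 0.638 in WT, 0.162 to 0.203 in LysM-DKO and 0.0821 to 0.103 in ABCG1KO.

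Summed over the 3 activating receptors, the count ratio to Fcgr2b was 3.88, 3.71 and 5.89 in WT 1 to 3, 2.69, 1.88 and 4.07 in LysM-DKO 1 to 3, and 1.75 and 1.74 in ABCG1KO 1 and 2. ABCG1KO was the lowest group without overlap, but LysM-DKO 2 lay close above it, and this sum was not tested. LysM-DKO 3 lay inside the WT range. Of the counts of the 4 receptor genes, Fcgr2b took 14.5% to 21.2% in WT, 19.7% to 34.7% in LysM-DKO and 36.4% in both ABCG1KO libraries. Fcgr4 took 11.0% ± 3.70 in WT (n = 3), 4.98% ± 1.94 in LysM-DKO (n = 3) and 3.36% ± 0.527 in ABCG1KO (n = 2). Fcgr3 held the largest share of counts in every library, from 51.2% to 71.6%. The activating receptors also differed in their proportions to each other, since the count ratio of Fcgr4 to Fcgr1 was 1.44, 1.42 and 0.949 in WT, 0.573, 0.997 and 0.260 in LysM-DKO, and 0.479 and 0.458 in ABCG1KO. The 2 ABCG1KO libraries lay within the LysM-DKO range there, and LysM-DKO 2 lay above WT 3. The ratio of Fcgr1 to Fcgr3 was 0.141 ± 0.0370, 0.155 ± 0.0302 and 0.136 ± 0.0303 in the 3 groups, which differed by less than the spread between libraries.

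**Figure D4:**
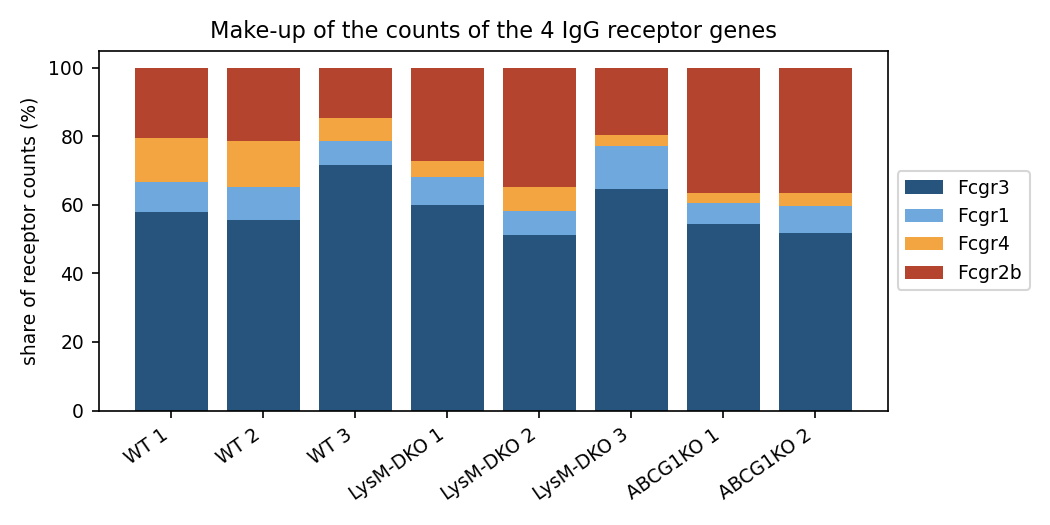
Bars show, for each of the 8 libraries, how the counts of the 4 IgG receptor genes divide among them in percent, not corrected for gene length. The red part, Fcgr2b, is 14.5% to 21.2% in WT and 36.4% in both ABCG1KO libraries.

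Per kilobase of all coding-transcript exons of a gene, Fcer1g and Fcgr3 had the highest levels in every group, and which of them led depended on the length used. In WT the levels were 811 ± 204 CPM per kilobase for Fcer1g, 496 ± 121 for Fcgr3, 125 ± 73.7 for Fcgr4, 68.2 ± 33.3 for Fcgr2b and 45.3 ± 21.0 for Fcgr1. In LysM-DKO they were 657 ± 88.9 for Fcer1g, 411 ± 113 for Fcgr3, 89.5 ± 54.2 for Fcgr2b, 51.0 ± 36.0 for Fcgr4 and 38.6 ± 4.80 for Fcgr1. In ABCG1KO they were 463 ± 105 for Fcer1g, 306 ± 125 for Fcgr3, 89.4 ± 33.4 for Fcgr2b, 25.1 ± 4.87 for Fcgr1 and 24.3 ± 5.45 for Fcgr4. Fcgr4 thus stood above Fcgr2b in WT and below it in both other groups. This order held in each library, since Fcgr4 to Fcgr2b per kilobase was 120.5 to 63.8, 200.2 to 103.5 and 52.9 to 37.4 in WT 1 to 3 and the other way round in all 5 other libraries. It rests on the length given to Fcgr2b, whose coding transcripts run from 1084 to 3544 bases. With the shortest of them, Fcgr2b would be at 239.8 CPM per kilobase in WT, above Fcgr4. Over the libraries of a group, Fcgr4, Fcgr2b and Fcgr1 overlapped with their neighbours in WT and LysM-DKO, and Fcgr1 overlapped with Fcgr4 in ABCG1KO. Fcer1g and Fcgr3 overlapped in ABCG1KO, at 389 to 538 against 218 to 395 CPM per kilobase, and were apart in WT and LysM-DKO with this length. With the shortest coding transcript of each, Fcgr3 led instead, at 1477 against 899.7 CPM per kilobase in WT, 1223 against 729 in LysM-DKO and 912 against 514 in ABCG1KO.

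Libraries of a group also differed from each other in a shared way. WT 2 and LysM-DKO 2 were the highest of their groups for Fcgr1, Fcgr2b, Fcgr3 and Fcgr4. The summed level of 20 interferon gamma response genes was likewise highest in them, at 773, 2213 and 759 CPM in WT 1 to 3, at 745, 1562 and 642 CPM in LysM-DKO 1 to 3, and at 1076 and 842 CPM in ABCG1KO 1 and 2. None of the 20 was called in any comparison by edgeR. Their median log2 fold change was -0.27 in LysM-DKO and -0.57 in ABCG1KO against WT. The summed level of 15 interleukin 4 response genes, 14 of them tested, was also highest in WT 2 and LysM-DKO 2 within their groups. It was at 527, 1422 and 282 CPM in WT 1 to 3 and at 313, 888 and 321 CPM in LysM-DKO 1 to 3. In ABCG1KO 1 and 2 it was at 1001 and 748 CPM. Among 14 interleukin 4 response genes, 0 were called in LysM-DKO and 2 rose in ABCG1KO, a share near the 16% of all genes called there in either direction. The 2 were Retnla (from 0.0932 to 22.5 CPM, edgeR adjusted p = 0.00218) and Ccl24 (from 0.315 to 35.8 CPM, edgeR adjusted p = 0.0275), which encode secreted proteins of alternative activation. The median log2 fold change of the 14 was -0.63 in LysM-DKO and 1.09 in ABCG1KO against WT. The part of either response in the receptor levels was not tested.

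Downstream of the activating receptors, 26 of 26 signalling genes were tested. In ABCG1KO against WT, 4 of the 26 rose and 3 fell where 16% of all genes were called, with a list median of -0.10 beside 0.01 over all genes. Cblb, a ubiquitin ligase that restrains receptor signalling, fell from 168.2 to 24.0 CPM (log2 fold change -2.81, SE 0.36, edgeR adjusted p = 0.00210). Pik3r1, a regulatory subunit of phosphoinositide 3-kinase, rose (log2 fold change 1.18, edgeR adjusted p = 0.00294), as did the exchange factor Vav1 (0.79, adjusted p = 0.00680) and the Src-family kinase Fgr (1.81, adjusted p = 0.0222). The adaptor Blnk fell (log2 fold change -1.31, edgeR adjusted p = 0.0116). Syk, the kinase that the ITAM recruits, was at 524 CPM in WT and 512 CPM in ABCG1KO (log2 fold change -0.03, edgeR adjusted p = 0.934). Syk was named after its values were seen. In LysM-DKO against WT, 0 of the 26 were called.

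On the inhibitory side, 12 phosphatase and adaptor genes were tested. In ABCG1KO, 2 of the 12 rose and 0 fell against WT, a share near the 16% of all genes called there, with a list median of 0.17. Inpp5d, which encodes the SHIP1 phosphatase that Fcgr2b recruits, was at 154.3, 182.3 and 208.2 CPM in WT 1 to 3, at 273.5, 320.0 and 218.2 CPM in LysM-DKO 1 to 3, and at 329.1 and 301 CPM in ABCG1KO 1 and 2. It rose in ABCG1KO (log2 fold change 0.79, SE 0.20, edgeR adjusted p = 0.0302). In LysM-DKO all 3 libraries lay above WT, with a log2 fold change of 0.58 that did not pass the test (edgeR adjusted p = 0.354). Pag1, a membrane adaptor that recruits the inhibitory kinase Csk, also rose in ABCG1KO (log2 fold change 1.89, edgeR adjusted p = 0.0209). In LysM-DKO against WT, 0 of the 12 were called.

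Other receptors with ITIM or ITAM signalling were changed in both directions in ABCG1KO. Of 17 other ITIM receptors tested, 3 rose and 6 fell, where 16% of all genes were called (996 higher and 1220 lower). Cd72 (log2 fold change -2.62, edgeR adjusted p = 0.00185), Pirb (-1.66, 0.00414), Cd22 (-1.52, 0.00774) and Clec12a (-1.03, 0.0131) fell, and Siglece rose (3.60, 0.00979). Of the 50-base windows of Cd72, 54.3% occur in other genes, as do 37.3% of those of Pirb, so their counts are uncertain. Of 16 other ITAM receptors and adaptors tested, 5 rose and 4 fell, beside the same 16% of all genes. Pira2 (log2 fold change -3.93, edgeR adjusted p = 0.000993), Cd300ld (-1.36, 0.00362), the beta-glucan receptor Clec7a (-1.33, 0.0116) and Pira6 (-1.90, 0.0206) fell, and Clec4e, the receptor Mincle, which signals through the Fcer1g chain, rose from 9.14 to 264 CPM (4.85, 0.0163). Pira2 and Pira6 are members of a family of near copies and are uncertain. The other ITAM adaptor of macrophages, Tyrobp, was named after its values were seen. It was at 1011 ± 156 CPM in WT, 617 ± 122 CPM in LysM-DKO and 595 ± 130.0 CPM in ABCG1KO (edgeR adjusted p = 0.353 and 0.0617 against WT). None of these 33 genes was called in LysM-DKO against WT by edgeR.

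**Figure D5:**
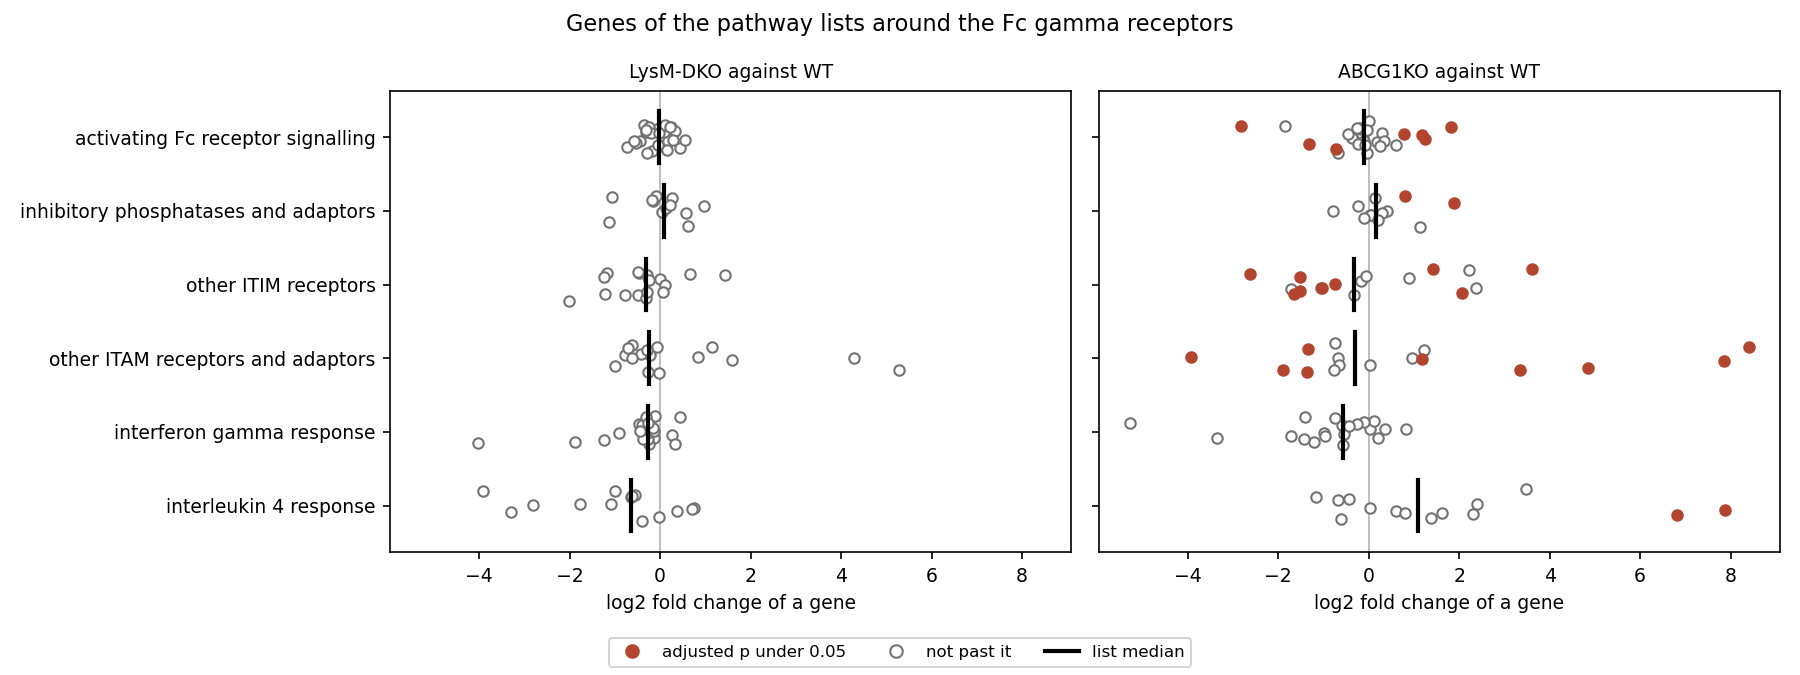
Each point is 1 gene of a pathway list at its log2 fold change against WT, in LysM-DKO (left) and ABCG1KO (right), filled where edgeR's adjusted p is under 0.05, with a bar at the list median. No gene is filled on the left. On the right, 4 genes of the activating signalling list rose and 3 fell, among the latter Cblb, which restrains receptor signalling.

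Of 13 other Fc receptor genes, 7 passed the filter and 0 were called in any comparison by edgeR. Fcgrt, the neonatal Fc receptor that recycles IgG from endosomes, was the most abundant and was singled out after its values were seen. It was at 60.0, 119.4 and 62.1 CPM in WT 1 to 3, at 151.5, 181.9 and 63.3 CPM in LysM-DKO 1 to 3, and at 258.3 and 198.9 CPM in ABCG1KO 1 and 2. Both ABCG1KO libraries lay above all 6 others (against WT, log2 fold change 1.51, SE 0.46, edgeR adjusted p = 0.0606).

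Markers of other cells that carry Fc receptors were summed in each library. As background for the calls below, 16% of the 13821 genes tested were called in ABCG1KO against WT, 996 higher and 1220 lower. B cells carry Fcgr2b without the activating receptors, and the summed B cell markers (10 of 12 found in the files) were at 3.47 to 34.5 CPM in WT, 1.53 to 4.02 CPM in LysM-DKO and 3.44 to 18.0 CPM in ABCG1KO. Vpreb3 was at 0 in LysM-DKO and ABCG1KO, and 0 of 8 tested B cell markers were called. The 10 markers of natural killer cells, which carry Fcgr3, summed to at most 2.51 CPM in any library, and Ncr1 was at 0 in all 8. The 10 mast cell markers summed to 2.46 to 5.94 CPM in WT, 0.872 to 3.12 CPM in LysM-DKO, and 13.2 and 56.0 CPM in ABCG1KO, with 1 of 7 tested called higher there. The 10 monocyte markers summed to 18.7 to 41.6 CPM in WT, 15.7 to 81.4 CPM in LysM-DKO, and 154 and 329 CPM in ABCG1KO, with 5 of 10 called higher against WT. The 11 neutrophil markers found in the files summed to 97.0 to 150.4 CPM in WT, 84.1 to 94.3 CPM in LysM-DKO and 228 to 371 CPM in ABCG1KO. Csf3r, the receptor for the growth factor G-CSF, made up most of each sum, at 84.3 to 130.5 CPM in WT and at 347.7 and 203.9 CPM in ABCG1KO 1 and 2, and was the 1 of 5 tested that rose there (edgeR adjusted p = 0.0131). The median log2 fold change of the 5 was 0.32. S100a9 was at 0 in WT and LysM-DKO. The 9 dendritic cell markers summed to 1189 to 2382 CPM in WT, 439 to 961 CPM in LysM-DKO and 134 to 326 CPM in ABCG1KO. Itgax, the integrin CD11c, which macrophages can also carry, made up most of each sum and was the 1 of 7 tested that fell in ABCG1KO against WT, from 1865 ± 617 to 208 ± 139 CPM (edgeR adjusted p = 0.0102). Siglech rose there, from 0 in all WT libraries to 5.22 ± 0.644 CPM (edgeR adjusted p = 0.00423), 4 of the 7 had a fold change above 0, and the list median was 2.59. The 7 eosinophil markers summed to at most 30.3 CPM in any library, with 1 of 3 tested higher in ABCG1KO. Among the 10 macrophage markers, Adgre1 and Csf1r rose and Cd68 and Ctss fell in ABCG1KO. The part of these markers in the receptor levels was not tested.

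The genes most like each member in log2 CPM over the 8 libraries are given as a description, since all points share libraries and depth, out of 8510 genes with a mean of at least 10 CPM. For Fcgr4 these were Mmp27 (Pearson r 0.96), Zbtb7b (0.96) and Nit1 (0.95). Mmp27 was at 17.6, 28.8 and 10.6 CPM in WT, 11.5, 21.0 and 6.37 CPM in LysM-DKO, and 10.6 and 8.07 CPM in ABCG1KO, so its highest WT and LysM-DKO libraries were those of Fcgr4 as well. For Fcgr1 they were Snx2 (0.93), Dbnl (0.91) and Snx6 (0.90), and for Fcgr3 Abhd16a (0.97), Unc13d (0.97) and Cept1 (0.96). For Fcer1g they were Cuta (0.97), Bad (0.96) and Rusc1 (0.96). For Fcgr2b, Fam110a (0.97) and Itch (0.93) were among them.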

How the data were processed

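RNA sequencing counts of 8 libraries were used. The authors deposited unnormalised htseq-count counts for each symbol in 1 file per library, as its closing special lines show. The submitters' processing notes name STAR 2.7.9a, TopHat, HTSeq 0.11.2, DESeq2 1.30.1, limma and the build mm10, with no role or order. The annotation and strand setting are not given in the sources used here. The 5 special lines entered neither library sizes nor tests, and reads outside genes among them were 4.26% to 13.8% of a library. The files hold no CPM: CPM was computed from the counts with TMM-scaled library sizes.

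All 8 libraries entered a single edgeR 4.0.16 quasi-likelihood fit in R 4.3.3 (filterByExpr, TMM, a term per group, 5 residual degrees of freedom), with Benjamini-Hochberg adjustment over 13821 genes and a threshold of 0.05. The script was tested on simulated data. Ratios are counts of 1 gene over another in the same library, compared by exact permutation tests on log2 ratios. Alternatives were DESeq2 1.42.0, other scalings and filters, fits of fewer groups, a replicate block and leaving out each library. The members and lists were chosen with earlier results of these data known. Named are the 5 members, the target genes, up to 5 called genes per list by adjusted p, and the 3 genes most correlated with each member, of which 1 is not reported here. Of the listed genes, 5 were not matched to a symbol. Intervals are 95% intervals and cover no adjustment. No 2 libraries of a group agreed within sampling noise. Sequences came from RefSeq (GRCm38.p6) for 5 of 5 promoters and from GENCODE M21 transcripts for shared stretches.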

Additional observations from a re-analysis of the deposited data

How the results depend on the processing

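Over 185 alternatives of the 15 member fold changes, 169 kept their direction and side of the threshold, 6 passed it and 10 changed sign. Since no member was called in the fit as reported, 0 could lose the threshold. Those that passed were, in ABCG1KO against WT, Fcgr4 (-2.35) and Fcer1g (-0.81) with DESeq2, Fcgr4 (-2.36) with only both groups in the fit, Fcgr4 (-2.68) and Fcer1g (-0.92) with the replicate block, and Fcgr1 (-1.12) without WT 3. Fcgr2b in LysM-DKO against ABCG1KO, 0.00 as reported, changed sign with RLE factors (-0.0321), library size only (-0.0744), at least 10 counts in every library (-0.0166), DESeq2 (-0.0301) and only both groups (-0.00418), and ran from -0.56 to 0.43 over fits without 1 library. Leaving out 1 library moved Fcgr1 in LysM-DKO against WT from -0.50 to 0.16, Fcgr2b there from -0.16 to 0.79 and in ABCG1KO against WT from -0.0592 to 0.81. The range for Fcgr1 in ABCG1KO against WT was -1.12 to -0.44. For Fcgr4 it was -1.98 to -0.80 in LysM-DKO against WT, -2.72 to -1.85 in ABCG1KO against WT and 0.37 to 1.47 between both, and for Fcgr3 in ABCG1KO against WT -1.19 to -0.34. The Fcgr4 to Fcgr2b log2 ratio ranged over such fits from -1.82 to -1.59, from -2.80 to -2.48 and from 0.80 to 1.12 in LysM-DKO against WT, ABCG1KO against WT and LysM-DKO against ABCG1KO. The causes were not tested.

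Genes called in LysM-DKO against WT were 5 as reported, 3 with at least 10 counts in every library, 280 with DESeq2, 8 with only both groups and 0 to 6 without 1 library. In ABCG1KO against WT they were 2216 (996 higher, 1220 lower), 2930 by library size only (2074 higher, 856 lower), 3125 with DESeq2 (1402 higher, 1723 lower) and 853 to 1848 without 1 library. In LysM-DKO against ABCG1KO they were 1853 (1073 higher, 780 lower), 1895 by library size only (877 higher, 1018 lower), 2929 with DESeq2, 948 with only both groups and 561 to 1960 without 1 library. Library size only moved the median of all genes to 0.17 in LysM-DKO and 0.25 in ABCG1KO against WT.

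With the replicate number as a block, 0, 1456 and 1024 genes were called in these comparisons. Deviations of same-numbered libraries correlated at -0.09 to 0.43, the highest being WT 2 with LysM-DKO 2. With 2 libraries in ABCG1KO their deviations mirror each other, so correlations with them say little about pairing. Between WT and LysM-DKO not every library correlated best with its own number, and the numbers were not taken to pair the samples. In LysM-DKO against WT the block lowered the SE of Fcgr4 from 0.62 to 0.28 (edgeR adjusted p = 0.318). That of Fcgr2b fell from 0.53 to 0.32 (edgeR adjusted p = 0.733).

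Among the target genes, sign changed for Epn2 in LysM-DKO against WT without WT 3 (-0.02) and without LysM-DKO 2 (-0.31, highest 0.40), for Abcg1 there without LysM-DKO 3 (0.11, lowest -0.60), and for Lyz2 in ABCG1KO against WT by library size only (0.0440). Epn1 in LysM-DKO against ABCG1KO changed sign with RLE factors (-0.0272), library size only (-0.0816), at least 10 counts (-0.0176), DESeq2 (-0.0250) and only both groups (-0.00539), and ranged from -0.10 to 0.11 without 1 library. With 2 to 3 libraries a group, the wide intervals of Fcgr2b and Fcgr4 limit what these data resolve.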
